A study of Bos taurus with 63 samples.

Results

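HSPA1A and HSP90AA1 are the stress-inducible cytosolic members of the HSP70 and HSP90 families of heat shock proteins. They are described here in blood leukocytes of German Holstein dams and their female calves. The members were chosen by identifier, ENSBTAG00000025441 for HSPA1A and ENSBTAG00000006270 for HSP90AA1, and are 2 of the 23010 genes of the count table.

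Heat shock proteins are molecular chaperones, which bind unfolded proteins and help them to fold or to stay soluble. HSPA1A holds exposed stretches of a client protein in a cycle of ATP binding and hydrolysis. HSP90AA1 completes the folding of steroid receptors, kinases and other signalling proteins that it receives from HSP70. Heat and other stresses release the transcription factor HSF1 from these chaperones, and HSF1 then drives the transcription of both genes. In cattle, HSP70 and HSP90 transcripts of blood cells are commonly used as markers of a thermal load.

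Direct HS dams (n = 12) were sampled in late pregnancy, after a day with a mean temperature-humidity index (THI) of at least 60. Control dams (n = 19) were sampled at the same stage after a day below this threshold. Control calves (n = 30) were sampled in their first weeks of life and are labelled without heat stress. A single calf is labelled with heat stress (HS calf, HS-IU_2048). For calves, the labels do not say whether direct or maternal HS is meant, so the control calves may have been free of only one of them. The HS status of the dam HS-IU_1804 is not given in the labels, so it entered no group. THI was recorded in the shed, so HS of the dams stands for the climate of the day before and not for the body temperature of an animal. Season and lactation of the dams are not in the labels. Their part in differences between direct HS and control dams therefore cannot be told apart from that of HS. The labels give each library a name of its own but no animal, and do not pair dams with their calves. Libraries were taken as separate animals, which the labels do not state. All 63 libraries carry the same batch in the labels.

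Reads on genes ranged from 4340680 to 19584521 per library. HSPA1A had between 466 and 3288 reads per library and HSP90AA1 between 3530 and 19199. The largest counting error of a library was 4.63% for HSPA1A. It covers the counting of reads only, and the error of library preparation was not measured. None of 6 relations of either transcript to library size within a group passed the test (lowest adjusted permutation p = 0.773), a check added after the data had been seen. In leukocyte RNA of a mixed sample, more cells of a type and more transcript per cell cannot be told apart. Identifiers of leukocyte markers could not be paired with symbols, so the part of the cell mix in the differences given here was not tested. Transcript levels are given as CPM, the reads of a gene relative to all reads of its library, scaled between libraries by TMM normalization. Groups were compared by edgeR's quasi-likelihood test over the genes whose count averaged 14 or more, with Benjamini-Hochberg adjustment.

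**Figure D1:**
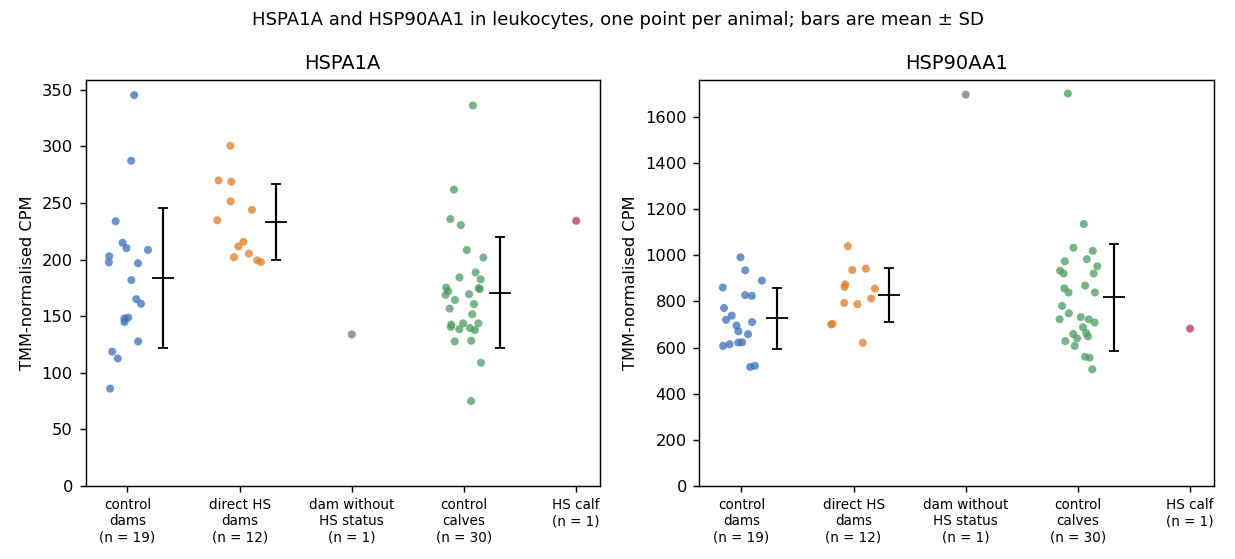
HSPA1A (left) and HSP90AA1 (right) in TMM-normalised CPM on linear axes from 0, with a point for each animal and the mean ± SD beside each group of more than 1 animal. For HSPA1A, the lowest direct HS dam (198 CPM) lies above the median of the control dams (182 CPM), and for HSP90AA1 both groups of dams overlap, while the control calves reach higher, up to 1703 CPM.

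HSPA1A was on average higher in direct HS dams than in control dams, but the difference did not pass the adjusted test. Control dams ranged from 85.8 CPM in HS-IU_1711 over a median of 182 CPM to 346 CPM in HS-IU_1821. Direct HS dams ranged from 198 CPM in HS-IU_1568 over a median of 225 CPM to 301 CPM in HS-IU_1460. All 12 direct HS dams were above the median of the control dams, and 12 of 19 control dams were below the lowest direct HS dam. The groups overlapped, since the other control dams reached into the range of direct HS or, in the case of HS-IU_1821, exceeded it. The mean was 233 ± 33.8 CPM (SD, n = 12) in the HS group. In the control group it was 184 ± 62.1 CPM (SD, n = 19). The log2 fold change was 0.34 (SE 0.14, 95% interval from 0.058 to 0.63), which is a 1.27-fold difference. The unadjusted p was 0.0199 and the adjusted p was 0.174 in edgeR's quasi-likelihood test.

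HSP90AA1 differed less between the same dams, and did not pass the adjusted test either. Control dams ranged from 516 CPM in HS-IU_1828 over a median of 711 CPM to 992 CPM in HS-IU_1622. Direct HS dams ranged from 621 CPM in HS-IU_1853 over a median of 834 CPM to 1040 CPM in HS-IU_1863. Of the direct HS dams, 9 of 12 were above the median of the control dams and 4 of 19 control dams were below the lowest direct HS dam. The mean was 828 ± 118 CPM (SD, n = 12) in the HS group. In the control group it was 726 ± 134 CPM (SD, n = 19). The log2 fold change was 0.19 (SE 0.092, 95% interval from 0.00053 to 0.37), which is a 1.14-fold difference. The unadjusted p was 0.0494 and the adjusted p was 0.258 in edgeR's quasi-likelihood test.

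Of both members, 0 were called between direct HS and control dams, where 2.66% of the 11645 tested genes had an adjusted p below 0.05 (0.764% higher and 1.90% lower with direct HS). The number of genes called, 310, was not stable, with 130 genes without the direct HS dam HS-IU_1516 and 599 without HS-IU_1568. An unadjusted p below 0.05, as in both members, was found in 19.3% of the tested genes. For HSP90AA1 it was near this limit and exceeded it in most fits with 1 dam left out and in several other edgeR fits. With library size alone, its unadjusted p in edgeR's test was 0.0626. With all labelled groups in 1 fit it was 0.114, and without the direct HS dam HS-IU_1863 it was 0.103. By p, HSPA1A ranked 1331 and HSP90AA1 ranked 2230 among the tested genes. With 1 dam left out, the rank of HSPA1A was from 483 (without HS-IU_1821) to 1802 and that of HSP90AA1 from 1179 (without HS-IU_1622) to 3151 (without HS-IU_1863). A larger absolute log2 fold change than that of HSPA1A was found in 9.15% of them, and than that of HSP90AA1 in 31.8%. Without the control dam HS-IU_1821, which had the highest HSPA1A level of all dams, the log2 fold change of HSPA1A was 0.42 (adjusted p = 0.0547 in the same edgeR test). That was the lowest adjusted p with any of the 31 dams left out, and the highest was 0.267.

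**Figure D2:**
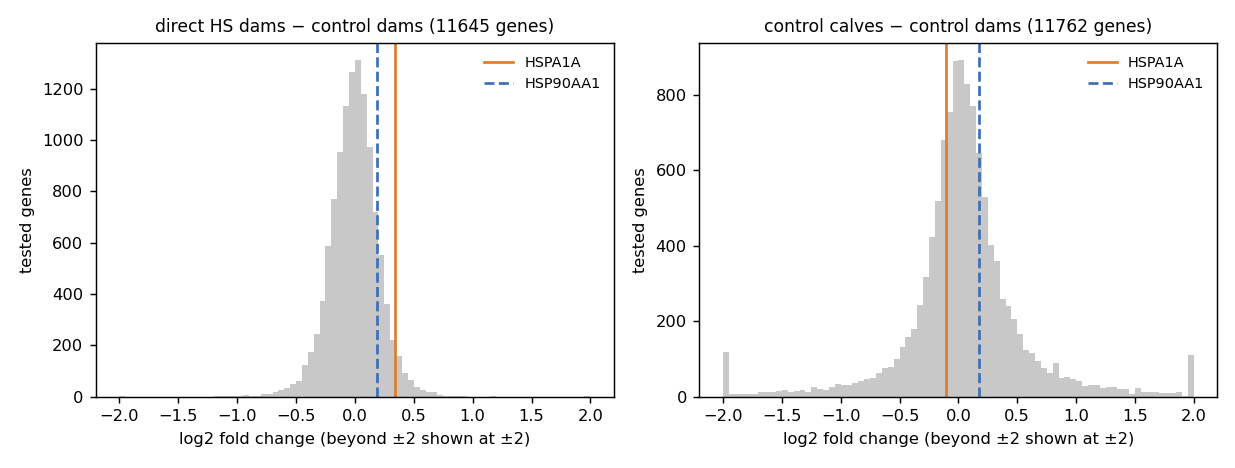
Histograms of the log2 fold change (x axis) over all tested genes (y axis, number of genes), on the left for direct HS dams against control dams and on the right for control calves against control dams; values beyond ±2 are stacked at ±2. Lines mark HSPA1A (solid) and HSP90AA1 (dashed). HSPA1A at 0.34 on the left is exceeded in size by 9.15% of the 11645 genes, and on the right both lines lie in the centre of the distribution.

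Control calves were then compared with the same control dams, to describe both chaperones in calves labelled without heat stress. HSPA1A in control calves ranged from 74.9 CPM in HS-IU_2017 over a median of 167 CPM to 336 CPM in HS-IU_2034. Almost the whole range of the control dams was covered by the calves, and 21 of 30 calves were below the median of the control dams. The mean of the calves was 171 ± 49.2 CPM (SD, n = 30), and the log2 fold change against control dams was -0.10 (SE 0.13, 95% interval from -0.36 to 0.15). The adjusted p was 0.541 in edgeR's quasi-likelihood test. Without HS-IU_1821 among the control dams, the log2 fold change was -0.032 (adjusted p = 0.863 in the same edgeR test).

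HSP90AA1 in control calves ranged from 505 CPM in HS-IU_2019 over a median of 765 CPM to 1703 CPM in HS-IU_2038. Of the calves, 19 of 30 were above the median of the control dams, and 4 exceeded the highest control dam. The mean of the calves was 819 ± 232 CPM (SD, n = 30), and the log2 fold change against control dams was 0.18 (SE 0.10, 95% interval from -0.030 to 0.38). The adjusted p was 0.170 in edgeR's quasi-likelihood test. Without HS-IU_2038, the log2 fold change was 0.12 (adjusted p = 0.301 in the same edgeR test).

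Between the generations, 0 of both members were called, where 39.7% of the 11762 tested genes had an adjusted p below 0.05 (22.3% higher and 17.4% lower in calves) and 47.4% had an unadjusted p below 0.05. Both comparisons share the control dams. The interval of the difference ends at -0.36 and 0.15 for HSPA1A and at -0.030 and 0.38 for HSP90AA1 on the log2 scale. An absolute log2 fold change larger than that of HSPA1A was found in 70.2% of the tested genes, and larger than that of HSP90AA1 in 53.5%. Scaling by library size alone moved the median log2 fold change of all genes from 0.034 to -0.071 and the share of higher genes among those called from 56.2% to 35.8%. Relative to the median of all genes, HSP90AA1 differed by 0.14 on the log2 scale after TMM and by 0.13 without it, and HSPA1A by -0.14 in both scalings. Their own log2 fold changes moved with the scaling, to 0.056 for HSP90AA1 (edgeR, adjusted p = 0.648) and to -0.22 for HSPA1A (edgeR, adjusted p = 0.149) with library size alone. In dams, library size alone moved the share of higher genes among those called with direct HS from 28.7% to 15.5%.

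In order of their means, HSPA1A was highest in direct HS dams, followed by control dams and control calves, and for HSP90AA1 the order was direct HS dams, control calves and control dams. To compare the remaining pair of groups, direct HS dams were set against control calves, a comparison added after the levels had been seen. HSPA1A was 1.36-fold higher in direct HS dams (0.45 on the log2 scale with an SE of 0.12; edgeR, adjusted p = 0.00366), and 24 of 30 control calves were below the lowest direct HS dam. In this comparison 33.6% of the 11727 tested genes were called (14.9% higher and 18.7% lower in direct HS dams), and 43.6% had an unadjusted p below 0.05. The share of higher genes among those called was 44.3%, and 58.8% with library size alone. These groups differ in both generation and HS label, and the label of the calves may mean another form of HS than that of the dams. The control dams share the generation of one group and the wording of the label of the other. Against them, the log2 fold changes of HSPA1A were 0.34 for direct HS dams and -0.10 for control calves. HSP90AA1 had a log2 fold change of 0.011 between these groups (SE 0.12, 95% interval from -0.24 to 0.26, adjusted p = 0.955 in the same edgeR test). For HSPA1A, neither direct HS dams and control dams nor control dams and control calves differed past the threshold, although the groups at the ends of the order did. For HSP90AA1, this holds for every pair of the 3 groups.

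**Figure D3:**
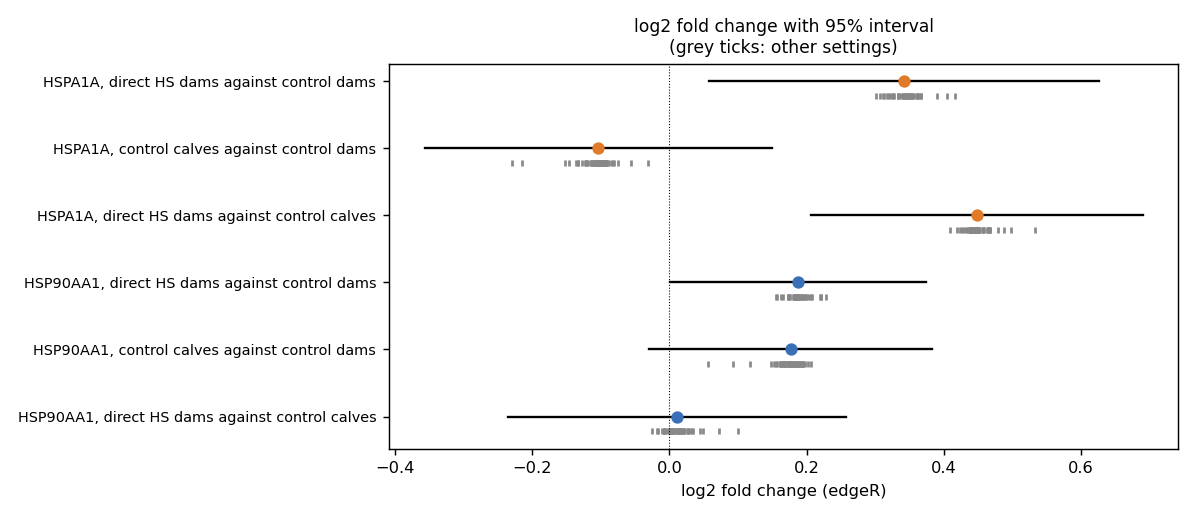
log2 fold changes of both transcripts in edgeR's fit (x axis) for the 3 pairs of groups, with lines for the 95% interval and grey ticks for the values under other settings, each library left out in turn included. The interval of HSPA1A in direct HS dams against control calves runs from 0.21 to 0.69, and the other pairs did not pass the adjusted test.

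HSPA1A values lay closer together in direct HS dams than in control dams, but this difference did not pass the adjusted test. The SD of log2 CPM was 0.20 in direct HS dams and 0.48 in control dams, and the level of the highest animal was 1.52-fold that of the lowest with direct HS and 4.03-fold without. The mean absolute deviation from the median of the group was 0.17 with direct HS and 0.37 without on the log2 scale. This difference of -0.20 had a two-sided permutation p of 0.0277, and an adjusted p of 0.111 over the 4 tests of spread. The SD of HSPA1A with direct HS was 0.421 times that of control dams, where the median of this ratio over the 11645 tested genes was 0.972, and 0.369% of the genes had a lower ratio. In control dams, 79.8% of the tested genes had a lower SD than HSPA1A, and in direct HS dams 20.0% had a lower SD.

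For HSP90AA1, a difference in spread did not pass the test in either comparison. Its SD of log2 CPM was 0.21 in direct HS dams, 0.27 in control dams and 0.36 in control calves. The adjusted permutation p was 0.323 both for direct HS against control dams and for control calves against control dams. Spread in control calves was 1.36 times that of control dams for HSP90AA1 and 0.829 times for HSPA1A (adjusted permutation p = 0.323), where the median over all 11762 tested genes was 1.24. The difference in mean absolute deviation of HSP90AA1, 0.074 on the log2 scale, was 0.043 without the calf HS-IU_2038 and 0.045 with library size alone.

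**Figure D4:**
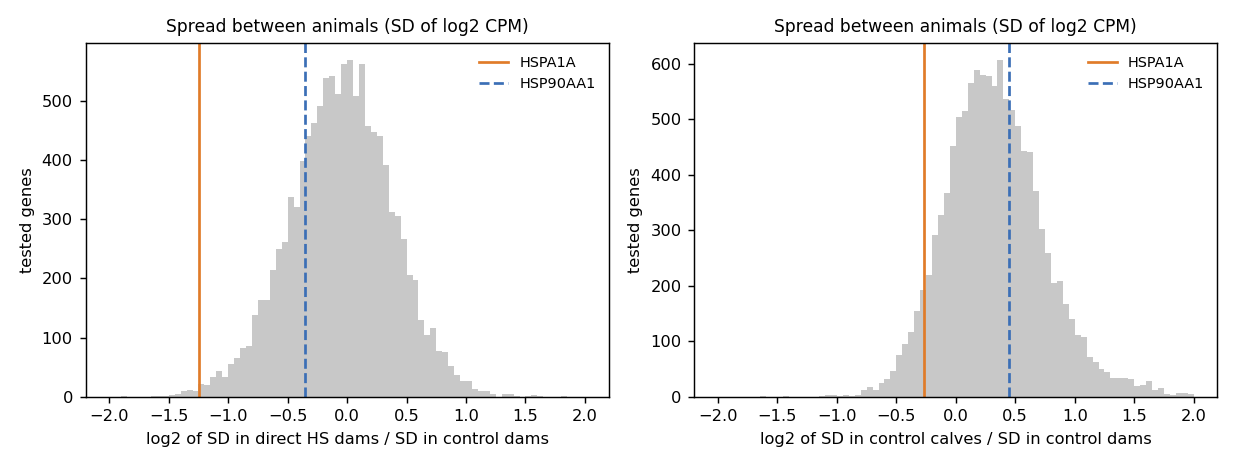
Histograms over all tested genes of the log2 ratio of SDs between animals (x axis; y axis, number of genes), for direct HS dams over control dams (left) and control calves over control dams (right), with lines for HSPA1A (solid) and HSP90AA1 (dashed). On the left, HSPA1A lies in the lower tail, where 0.369% of the genes have a lower ratio.

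Both chaperones act in sequence on many client proteins, so it was asked whether their transcripts varied together between animals. No relation was detectable in dams, where the intervals of r were wide. In control dams, Pearson's r of log2 CPM was 0.112 (n = 19, 95% interval from -0.360 to 0.539, two-sided permutation p = 0.645, adjusted over 3 groups p = 0.712), and Spearman's rho was 0.0877 (permutation p = 0.719). Without HS-IU_1711 and HS-IU_1821, which were farthest from the median of HSPA1A, r was 0.297 (permutation p = 0.247). With 1 control dam left out, r was from 0.0466 (without HS-IU_1467) to 0.192 (without HS-IU_1711). HS-IU_1821, with the highest HSPA1A, had 658 CPM of HSP90AA1, below the median of its group. HS-IU_1711, with the lowest HSPA1A, had 772 CPM, above this median.

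In direct HS dams, r was -0.118 (n = 12, 95% interval from -0.648 to 0.489, permutation p = 0.712, adjusted p = 0.712) and rho was -0.119 (permutation p = 0.715). Without HS-IU_1460 and HS-IU_1844, r was 0.0914 (permutation p = 0.803). With 1 dam left out, r was from -0.364 (without HS-IU_1853) to 0.0471 (without HS-IU_1863). The dam with the highest HSP90AA1, HS-IU_1863, had 202 CPM of HSPA1A, among the lowest of its group.

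In control calves, r was 0.379 (n = 30, 95% interval from 0.0215 to 0.650), with a permutation p of 0.0404 and an adjusted p of 0.121, and rho was 0.261 (permutation p = 0.161, adjusted p = 0.482). The value of r depended on single calves. With 1 calf left out it was from 0.254 to 0.445, and the lowest adjusted permutation p was 0.0543 (without HS-IU_2020). Without HS-IU_2017 and HS-IU_2034, the calves with the lowest and the highest HSPA1A, r was 0.251 (permutation p = 0.197). Without HS-IU_2038, which had 262 CPM of HSPA1A and the highest HSP90AA1, r was 0.254 (permutation p = 0.185). The correlations of control calves and control dams differed by 0.286 in Fisher's z, with a two-sided permutation p of 0.359.

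**Figure D5:**
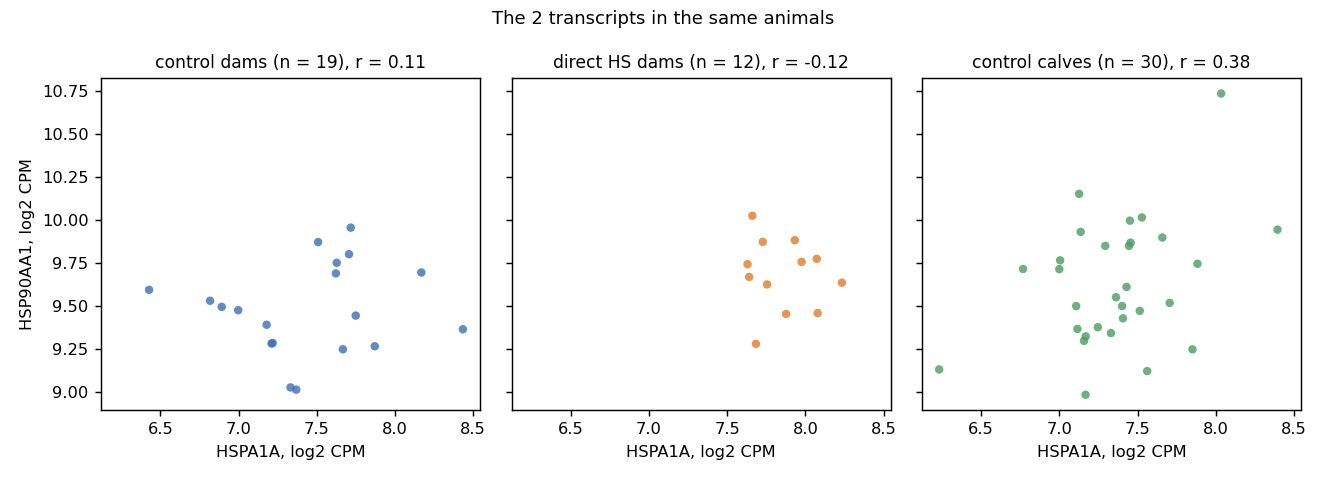
HSPA1A (x axis) against HSP90AA1 (y axis), both in log2 CPM, with a point for each animal in control dams, direct HS dams and control calves. Pearson's r is 0.112, -0.118 and 0.379, and the isolated point at the top of the calves is HS-IU_2038.

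The ratio of both transcripts within a library does not depend on the scaling between libraries. HSP90AA1 had a median of 3.54 reads for each read of HSPA1A in direct HS dams (from 2.60 to 5.15) and of 4.64 in control calves (from 2.63 to 8.14). In control dams the median was 4.203 (from 1.90 to 8.98). These are ratios of reads that are not corrected for transcript length or for uncounted reads that HSPA1A may share with a near-identical copy. The range of direct HS dams lay within that of the control dams. The mean log2 ratio of HSPA1A to HSP90AA1 was -1.83 ± 0.308 (SD, n = 12) with direct HS and -2.03 ± 0.524 (SD, n = 19) in control dams, a difference of 0.21 (two-sided permutation p = 0.222, adjusted over 2 comparisons p = 0.222). In control calves it was -2.27 ± 0.427 (SD, n = 30), a difference of -0.23 from control dams (permutation p = 0.0959, adjusted p = 0.192).

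Among 11516 genes tested in both comparisons, likeness to a member was taken as the smaller of its Pearson correlations over the 31 dams, after subtracting the mean of the own group, and over the 30 control calves. The genes were chosen for the highest of these values, so they are given as a description without a test. Those most like HSPA1A were ENSBTAG00000040361, with r of 0.611 in dams and 0.647 in calves, and ENSBTAG00000038428, with 0.615 and 0.598. Those most like HSP90AA1 were ENSBTAG00000017863, with r of 0.853 in dams and 0.847 in calves, and ENSBTAG00000001945, with 0.845 and 0.879. The order depended on the measure. By Spearman's rho, ENSBTAG00000040361 was second for HSPA1A (likeness of 0.520), ENSBTAG00000038428 was not among the first 2, and neither gene named for HSP90AA1 was. A likeness above 0.5, a limit chosen after the values were seen, was found for 508 genes with HSP90AA1 and for 30 genes with HSPA1A, and by Spearman's rho for 463 and 6 genes. HSPA1A itself ranked 2271 of the 11516 genes by likeness to HSP90AA1, with r of 0.0716 in dams and 0.379 in calves. The tested genes share the same libraries and their depth, so these correlations are not independent of each other.

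The HS calf HS-IU_2048 had 234 CPM of HSPA1A, above 27 and below 3 of the 30 control calves. Its HSP90AA1 was 682 CPM, above 9 and below 21 of them. Both values were within the range of the control calves, and with 1 calf the difference was not tested.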

How the data were processed

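Red cells of blood samples were lysed and leukocyte RNA was captured on oligo-dT beads, prepared with the Lexogen SENSE kit and read from a single end. The authors deposited whole read counts per gene and library without normalization. Per the labels, reads were trimmed with cutadapt 4.2, checked with FastQC 0.12.1, mapped with STAR 2.7.11a to ARS-UCD1.2 and counted per gene. The strand column that was taken is not given in the sources used here. STAR counts uniquely mapped reads, so reads shared with a near-identical copy are not counted. For HSPA1A this concerns HSPA1B, which the RefSeq table (ARS-UCD2.0) lists only as a synonym of HSPA1A, and its level is therefore uncertain.

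Groups were taken from the labels. The paper's covariates, such as season and lactation, were not fitted, since the labels do not hold them. Genes with a mean count below 14 were left out. TMM, edgeR 4.0.16 in R 4.3.3 (quasi-likelihood test, threshold of 0.05 on the adjusted p), and CPM with a prior count of 2 on the log2 scale were used. Permutation tests were two-sided with 100000 resamples, and ratios of reads had a pseudocount of 0.5. The SE was the size of the log2 fold change divided by the square root of F. P-values measure the spread between libraries of 1 farm, taken as separate animals. Routines were tested on simulated data.

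Alternatives were DESeq2 1.42.0, limma-voom (limma 3.58.1), other scalings and filters, robust dispersions, log2 library size or the first surrogate variable (sva 3.50.0) as covariate, all labelled groups in 1 fit, all labelled dams against all labelled calves, and each library left out. The members, lists and tests were chosen with earlier results of these data known. Names of both members are those under which the identifiers were given. The RefSeq table gave identifiers for 0 of its 37063 genes, so 0 of 63 heat shock genes and 0 of 56 markers of leukocytes and other blood cells could be looked up, and promoter motifs and sequences were not analysed here. Besides both members, genes named are the 2 with the highest likeness to each. Figures were drawn with matplotlib 3.10.9.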

Additional observations from a re-analysis of the deposited data

Results flagged for a closer look

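HSP90AA1 in HS-IU_1804, the dam without HS status in the labels, was 1699 CPM, a library outside the comparisons with a level above all 19 control dams (up to 992 CPM) and all 12 direct HS dams (up to 1040 CPM). Of the 30 control calves, 29 were below it. Its HSPA1A was 134 CPM, above 4 of the 19 control dams and below each of the 12 direct HS dams. It had 12.7 reads of HSP90AA1 for each read of HSPA1A, where the other libraries reached up to 8.98. The paper left this library out because it was placed among the calves. It also describes the sample as an outlier in its plots of genomic relationships and of metabolites. The TMM factor of the library, 0.782, was below those of the other dams. The part of these features in its level was not tested.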

How the results depend on the processing

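No paired analysis was possible because the labels give no replicate numbers and do not pair dams with calves. HSPA1A and HSP90AA1 kept their direction and their side of the threshold in direct HS against control dams and in control calves against control dams under every alternative run, 10 and 11 per gene and 31 and 49 with 1 library left out. Between dams, log2 fold changes were from 0.30 to 0.42 (HSPA1A) and from 0.16 to 0.23 (HSP90AA1), with adjusted p from 0.0547 to 0.267 and from 0.149 to 0.480. Between control calves and control dams, they were from -0.23, with all labelled dams and calves, to -0.032 (HSPA1A) and from 0.056, with library size alone, to 0.21 (HSP90AA1), with adjusted p from 0.0670 to 0.863 and from 0.105 to 0.648. HSPA1A stayed called in direct HS dams against control calves in all 52 fits (from 0.41 to 0.53, adjusted p from 0.000337 to 0.0106). HSP90AA1 changed sign there with log2 library size (-0.0084) or the first surrogate variable (-0.016) as covariate, and with 1 library left out it was from -0.025 to 0.072. The number of genes called between dams was 310, and 506 in DESeq2, 136 without a filter, 641 with the surrogate variable, 65 with all groups in 1 fit, and with 1 dam left out it was lowest at 130 for HS-IU_1516 and highest at 599 for HS-IU_1568. The correlation in control dams was -0.00053 with library size alone and 0.136 as a partial correlation given log2 library size. That in direct HS dams was from -0.364 to 0.0471 with 1 dam left out, the latter without HS-IU_1863. The difference in spread of HSPA1A between dams was from -0.23 to -0.16 with 1 dam left out. It passed the threshold without the control dam HS-IU_1749 (-0.22, adjusted permutation p = 0.0491). With each other dam left out it did not, and the highest adjusted permutation p was 0.199. With library size alone the difference was -0.17 (adjusted permutation p = 0.289). The cause of these changes was not tested. Partial correlations given leukocyte markers, and fits with these markers as covariates, were not run, since their identifiers could not be paired with symbols. Depth limits the precision of a library only through counting error, and the error of library preparation was not measured.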
